A study of Homo sapiens with 15 samples.

Results

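The comparison described here sets a degrader of the BET proteins, ARV-825, directly against an inhibitor of the same proteins, OTX015, in cultured human acute myeloid leukaemia cells of the line OCI-AML5. Its members were chosen by treatment: the 3 libraries labelled ARV-825 and the 3 labelled OTX015, which make 6 of the 15 libraries in the series, with all genes of the table taken and none selected by its values. Of 19604 genes in the table, 10819 reached 1 FPKM on average in the 9 drug libraries and were tested. FPKM is fragments per kilobase of transcript, scaled to the size of the library, a level that allows for gene length. Cells received 1000 nM of either compound for 4 h, so dose and time match. The 3 control libraries of the same table are labelled as cells given no treatment, with no vehicle named, and they enter as the base level for both compounds. All 9 cultures grew with serum and GM-CSF, the growth factor on which such myeloid cells are often kept. The design is 1 cell line at 1 dose and 1 time, and it compares 1 pair of compounds. The other 6 libraries, with an shRNA against RUNX1 or a non-targeting shRNA for 72 h, are not part of it.

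BET proteins read acetylated lysines on histone tails through paired bromodomains and help RNA polymerase II to move from pausing into elongation, partly by bringing in the kinase complex P-TEFb. In myeloid leukaemia they are known for holding up genes near large enhancers, of which MYC is the textbook case. OTX015 occupies the bromodomains and releases the proteins from chromatin. ARV-825 carries an OTX015-type ligand tethered through a linker to a binder of cereblon, the substrate receptor of an E3 ubiquitin ligase, so that a bound BET protein is ubiquitinated and sent to the proteasome. The named change in structure between the compounds is therefore the linker and the cereblon binder, and the comparison asks what it adds to or takes from the response in mRNA.

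A few markers chosen as defining other cell types were low, with 1 exception. HBB and PF4, which define red cells and platelets, were listed at 0 in all 9 libraries. CD3E, MS4A1, EPCAM and COL1A1 stayed at or below 0.176 FPKM, and the T cell gene CD3D reached 0.656. The exception was ITGA2B, the platelet integrin alpha chain, at 1.26, 1.65 and 1.31 FPKM with OTX015 and 3.53, 2.64 and 2.54 with ARV-825 (a difference of 0.69 in log2(FPKM + 1); limma adjusted p = 2.98e-04). Other listed markers of other cell types were also expressed in control, such as NKG7 at a mean of 34.0 FPKM, NCAM1 at 11.8 and CD79A at 4.26. Of 72 listed, 62 stayed under 1 FPKM in all 9 libraries. All 12 listed markers of myeloid leukaemia lines passed the filter. Libraries of a group correlated across genes at 0.978 to 0.997, and ARV-825 with OTX015 libraries at 0.955 to 0.974. The ARV-825 libraries had lower median values, 1.80 to 1.92 FPKM against 2.06 to 2.10 with OTX015, and fewer genes at 1 FPKM or above, 10496 to 10588 against 10638 to 10703. Neither set of 3 overlapped the other, and the exact two-sided permutation p of 0.1 is the smallest that 3 against 3 can give. ARV-825 replicate 1 stands apart in listing 6 mitochondrially encoded genes at 0 that were among the most abundant in the other 8 libraries, which may be a failed estimate. The values are scaled to library size and were read as quantile normalized, a step that brings libraries towards a shared distribution. The medians above are values after that step, and why they still differed between the compounds was not tested. Such values cannot show how much RNA a cell held, and fewer cells of a kind cannot be told apart from less RNA per cell.

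ARV-825 and OTX015 left most expressed genes at different levels, mostly by small amounts. By limma, 6282 of 10819 genes differed at an adjusted p under 0.05 (58.1%), 3610 lower (33.4%) and 2672 higher (24.7%) with ARV-825. Differences are given as log2(FPKM + 1) with ARV-825 minus OTX015, so a negative value is a lower level with the degrader, and a value of 1 is a 2-fold difference on that scale, which understates changes of low genes. Only 114 genes were at least 2-fold lower (1.05%) and 91 at least 2-fold higher (0.841%), whereas 4856 of the called genes (77.3%) differed by less than 1.5-fold. The median over all tested genes was -0.04, and the median size of a called difference 0.38, with a median SE of 0.074. Against untreated cells, 74.2% of tested genes passed with ARV-825 and 69.6% with OTX015. The values of the 3 libraries did not overlap between the compounds in 6712 genes (62%), so a gap between the groups is the usual case here and is not by itself particular to a gene.

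**Figure D1:**
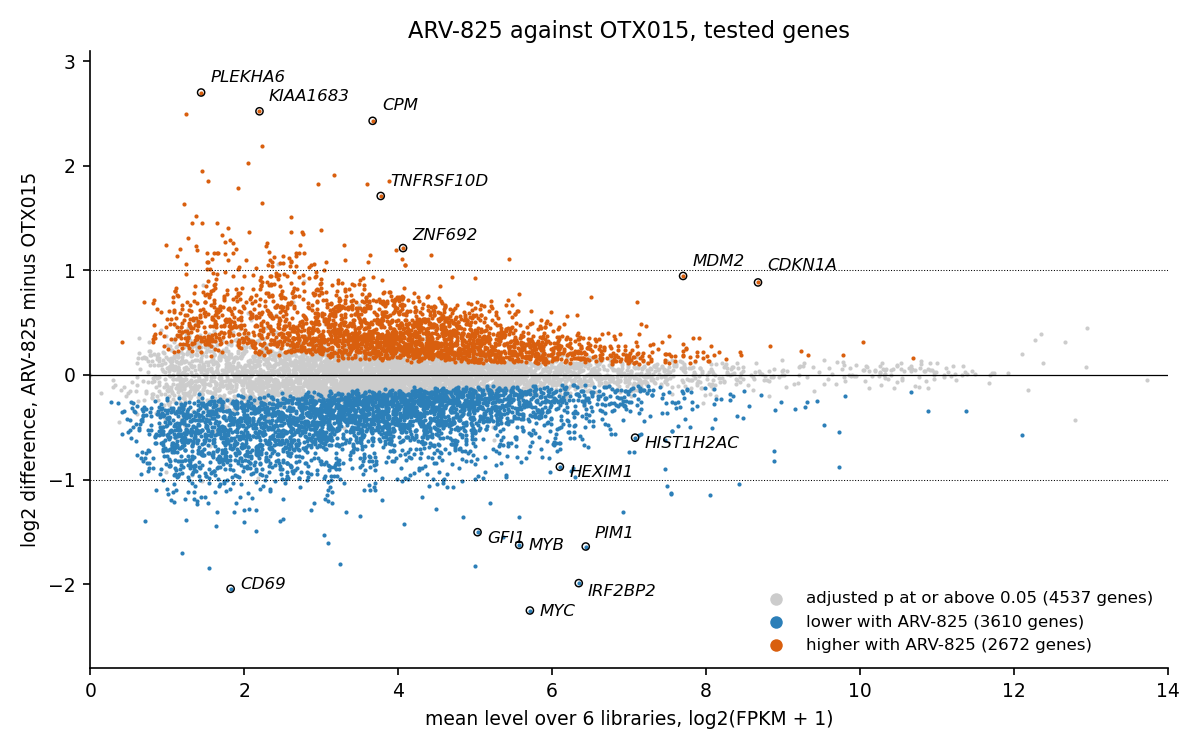
Difference between ARV-825 and OTX015 (vertical axis, log2) against mean level over the 6 libraries (horizontal axis, log2(FPKM + 1)) for the tested genes, coloured by call, with dotted lines at 2-fold. MYC and IRF2BP2 lie lowest among abundant genes and KIAA1683 and CPM near the top, while most coloured points lie inside the dotted lines; 6 mitochondrially encoded genes, listed at 0 in ARV-825 replicate 1 and not called, fall below the plotted range.

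MYC, the transcription factor that drives growth and ribosome production, was lower with ARV-825 by one of the widest gaps on the log2(FPKM + 1) scale. Its level was 114, 111 and 114 FPKM in the 3 OTX015 libraries and 24.1, 21.4 and 23.6 in the 3 ARV-825 libraries, against a mean of 288 in control. The ARV-825 libraries thus lay far below both other groups, 4.92-fold below OTX015, with a log2 difference of -2.25 ± 0.0476 (SE; limma adjusted p = 1.47e-09). Of 10 tested MYC network genes, 5 were lower with ARV-825 and 1 was higher, with a median of -0.27. The partner MAX stood at 49, 59 and 54.8 FPKM with OTX015 and 40.4, 36 and 38.1 with ARV-825 (-0.50), and MXI1, a competing repressor of the same dimer, had a difference of -0.77. Genes of processes that MYC is known to promote did not follow in 1 direction. Of all tested genes, 24.7% were higher and 33.4% lower. Among 59 ribosome assembly factors, 15 were higher and 14 lower with ARV-825, with a median of -0.01, although their median against control was -0.75 with ARV-825 and -0.77 with OTX015. RIOK1, a kinase of small-subunit maturation, was lower (8.55, 8.33 and 9.03 FPKM with OTX015 and 4.31, 4.03 and 5.21 with ARV-825).

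The transcription factors that specify blood cells were the list with the largest share of lower genes. Of 31 tested haematopoietic transcription factors, 25 were lower with ARV-825 and 1, CBFA2T3, was higher, with a median of -0.50. MYB, the progenitor factor of immature myeloid cells, had 80.5, 79.8 and 87.4 FPKM with OTX015 and 26.3, 26.5 and 25.5 with ARV-825, against 181 in control (-1.62 ± 0.0432; limma adjusted p = 4.69e-09). GFI1, a transcriptional repressor that acts in granulocyte development, had 53.9, 52.8 and 55.4 FPKM with OTX015 and 18.8, 17.6 and 18.9 with ARV-825 (-1.50 ± 0.0405; limma adjusted p = 4.69e-09). NFE2, a factor of erythroid and platelet precursors, went from 13.7, 12.7 and 12.3 to 4.0, 3.8 and 3.63 FPKM (-1.53). In these 3 genes the highest ARV-825 library lay below the lowest OTX015 library by more than 2-fold. LYL1 and LMO2, partners in a stem-cell complex, showed the same order, LYL1 at 189.8 ± 8.0 with OTX015 and 76.1 ± 3.97 with ARV-825 (mean FPKM ± SD, n = 3) and LMO2 at 34.1 ± 2.28 and 13.4 ± 1.32.

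The factors nearest to RUNX1 did not move alike. RUNX1 itself, a master regulator of blood formation, stood at 52.1, 52.3 and 61.3 FPKM with OTX015 and 35.9, 38.8 and 34.1 with ARV-825, against 61.4 in control (-0.59 ± 0.0684; limma adjusted p = 4.56e-05). SPI1, which encodes PU.1, did not differ between the compounds beyond the spread of the libraries, at 63.4, 63.4 and 57.3 FPKM with OTX015 and 57.7, 60.4 and 61.5 with ARV-825, against 208 in control. Its difference of -0.03 had a 95% interval of -0.17 to 0.10 and an adjusted p of 0.644 by limma, and its groups overlapped. ERG, an endothelial and stem-cell ETS factor, also missed the threshold at -0.17 (interval -0.35 to 0.00; limma adjusted p = 0.0862), with means of 0.749 ± 0.0621 and 0.554 ± 0.0992 FPKM against 6.21 in control, and it passed in 3 alternatives (adjusted p of 0.0429, 0.0355 and 0.0449). CEBPE, a factor of late granulocyte maturation, was lower by a small amount (-0.28; limma adjusted p = 0.0187), and its call was lost without OTX015 replicate 1, ARV-825 replicate 1 or ARV-825 replicate 2. Of 10 tested HOX, MEIS and PBX genes, which mark position and self-renewal, 7 were lower and 1 higher. HOXA10 stood at 5.45, 4.75 and 4.18 FPKM with OTX015 and 1.82, 3.18 and 2.49 with ARV-825, while HOXB3 was the exception, at 4.1, 3.86 and 4.14 and 9.8, 9.29 and 8.71 FPKM (1.03).

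**Figure D2:**
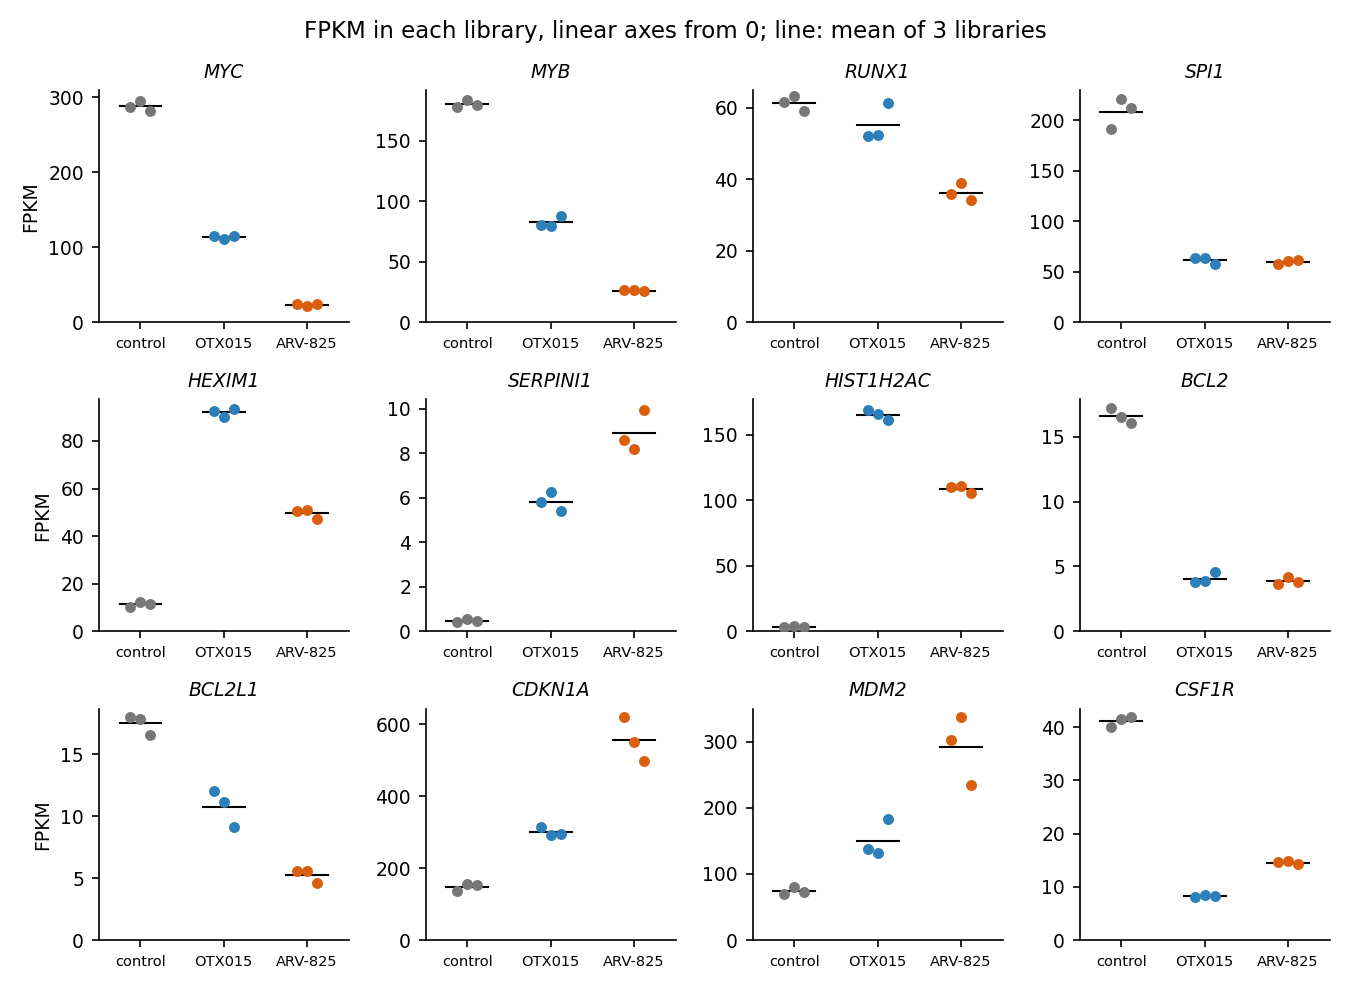
FPKM in each of the 9 libraries for 12 genes chosen as anchors (vertical axes linear from 0; points are libraries, lines the mean of 3). MYC, MYB, RUNX1 and BCL2L1 step down from OTX015 to ARV-825, SPI1 and BCL2 sit at the same low level with both compounds, and CDKN1A, MDM2 and SERPINI1 are higher with ARV-825.

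HEXIM1 and BRD2 were lower with ARV-825 than with OTX015, while SERPINI1 was higher. HEXIM1, which encodes the inhibitor of P-TEFb and is widely used as a readout of BET inhibition, had 92.8, 90.0 and 93.3 FPKM with OTX015 and 50.7, 51.1 and 47.1 with ARV-825, against 11.3 in control. Both compounds lay above control, and the ARV-825 libraries lay below all OTX015 libraries by -0.88 ± 0.0564 (limma adjusted p = 1.65e-06). SERPINI1, a neuronal serpin that also rises with BET inhibitors, went the other way, at 5.82, 6.25 and 5.39 FPKM with OTX015 and 8.61, 8.19 and 9.93 with ARV-825 (0.54; limma adjusted p = 4.22e-04). Among the BET genes themselves, BRD2 stood at 316, 313 and 329 FPKM with OTX015 and 241, 233 and 202 with ARV-825, against 93 in control (-0.51 ± 0.072; limma adjusted p = 1.75e-04). BRD3 did not pass, at 0.06 with an interval of -0.11 to 0.23 (limma adjusted p = 0.516). These are levels of mRNA, and the proteins that ARV-825 targets were not measured. Over the list of 11 tested BET and P-TEFb genes, 5 were lower and 1 higher (median -0.20), LARP7 and MEPCE, parts of the complex that stores P-TEFb, being among the lower.

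Elongation and Mediator genes had called members in both directions. Of 10 super elongation complex genes, 5 were lower and 2 higher, where 33.4% of all tested genes were lower and 24.7% higher. ELL2, an elongation factor, had 10.8, 12.7 and 10.5 FPKM with OTX015 and 8.53, 8.25 and 8.21 with ARV-825, against 2.56 in control, while AFF3, a scaffold of related complexes, had 3.13, 2.76 and 3.73 and 5.89, 9.23 and 9.1 FPKM (1.09). AFF1 was called at -0.43 but lost the call in at least 1 alternative. Of 32 Mediator genes, 16 were lower and 3 higher, with a median of -0.19. MED11, a subunit of the head module, was at 8.85, 8.8 and 8.11 FPKM with OTX015 and 4.28, 3.09 and 3.4 with ARV-825 (-1.07), and MED19 was higher (16, 14.8 and 13.9 and 23.8, 22.4 and 24.7 FPKM). Of 12 RNA polymerase II subunits, 6 were higher with ARV-825 and 0 lower (median 0.14), none by more than 0.29, the value of POLR2B.

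The genes of the ligase that ARV-825 recruits, and transcripts of proteins that cereblon ligands are known to degrade, were also examined. CRBN, which encodes cereblon, had 16.8, 15.5 and 15.9 FPKM with OTX015 and 14.9, 11.8 and 13.9 with ARV-825, a difference of -0.23 ± 0.0785 that passed narrowly (limma adjusted p = 0.0272) and was lost in several alternatives. Of 15 tested cereblon ligase genes and neosubstrates, 9 were lower and 3 higher (median -0.22). ZFP91, a zinc-finger neosubstrate, stood at 26.7, 24.9 and 28.3 FPKM with OTX015 and 14.6, 15.4 and 14.9 with ARV-825. ZNF692, also a zinc-finger neosubstrate, moved the other way, from 11.4, 9.9 and 8.78 to 24.3, 25.2 and 23.9 FPKM (1.21 ± 0.075; limma adjusted p = 1.31e-06). Its ARV-825 level was nearer to the control mean of 31.5 than its OTX015 level was. Among 35 proteasome genes, 11 were lower, a share near that of all tested genes, and 3 higher, with a median of -0.01. The lower ones included the lid and base subunits PSMD7 (70.8, 68.9 and 68.6 and 50.4, 48.2 and 49.9 FPKM), PSMD11 and PSMC2.

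Histone genes split between copies. HIST1H2AC, an H2A gene often raised by BET inhibitors, was at 169, 166 and 162 FPKM with OTX015 and 109.9, 111 and 106 with ARV-825, against 3.45 in control (-0.60 ± 0.043; limma adjusted p = 2.77e-06). Of 33 tested H2A and H2B genes, 8 were lower with ARV-825 (24.2%) and 5 higher (15.2%). Of 29 tested H1, H3 and H4 genes, 1 was lower (3.45%) and 6 higher (20.7%). Each share was below that of all tested genes, 33.4% lower and 24.7% higher. HIST1H2BH moved opposite to HIST1H2AC: it had 2.96, 2.34 and 6.4 FPKM with OTX015 and 16.1, 19.4 and 13.9 with ARV-825 (1.91 ± 0.237). HIST2H2AA3, whose reads may not be separable from those of its near-identical copy HIST2H2AA4, went from 278, 269 and 286 to 114, 138 and 125 FPKM. HIST1H3D had 3.8, 4.71 and 5.21 FPKM with OTX015 and 2.47, 0.039 and 0.00831 with ARV-825, so that ARV-825 replicate 1 alone kept a clear level. Whether these transcripts carry poly(A) tails, and whether the libraries selected for them, is not stated in the labels. Without OTX015 replicate 3, whose values were the highest of its group for HIST1H2BH, 12 of the H1, H3 and H4 genes were called higher in place of 6, and without ARV-825 replicate 2, 4 were called lower in place of 1.

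Chromatin modifiers, RNA decay factors and splicing factors were, where called, mostly lower with ARV-825. Of all tested genes, 33.4% were lower and 24.7% higher. Of 44 histone methyltransferase and demethylase genes, 24 were lower and 2 higher (median -0.24). KDM6B, a demethylase of the Polycomb mark, had 4.11, 4.41 and 5.28 FPKM with OTX015 and 1.7, 1.8 and 1.65 with ARV-825 (-1.04). SETDB1, which writes the heterochromatin mark on histone H3, had 15.9, 17.5 and 15.8 and 8.48, 8.48 and 8.79 FPKM (-0.86). Among 25 acetyltransferase and deacetylase genes, 10 were lower (40%, near the share of all tested genes) and 3 higher. EP300, a writer of the acetyl marks that bromodomains read, had 23.1, 23.2 and 27.7 FPKM with OTX015 and 12.8, 13.5 and 10.8 with ARV-825, against 13.5 in control. KAT2A, another acetyltransferase, was higher at 29.2, 29.9 and 31.7 FPKM against 16.4, 17.4 and 15.3 (0.85).

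Of 26 mRNA decay factors, 16 were lower and 3 higher (median -0.25). ZFP36L2, which binds AU-rich messages and promotes their decay, had 67.7, 70.2 and 71.3 FPKM with OTX015 and 23.5, 21.8 and 24.1 with ARV-825 (-1.55 ± 0.0587; limma adjusted p = 6.64e-08). Its relative ZFP36 was raised above control by both compounds, to 233, 242 and 251 FPKM with OTX015 and 134, 133 and 119.7 with ARV-825, against 28.4 in control. CNOT6L, a deadenylase, had 9.5, 9.2 and 10.5 and 3.92, 4.54 and 5.24 FPKM, and RC3H1, a decay factor that was higher, 16.7, 14.5 and 25 and 29.8, 35 and 25. Of 20 SR splicing factor genes, 11 were lower and 2 higher. SRSF3 was at 261, 263 and 253 FPKM with OTX015 and 126, 119 and 127 with ARV-825 (-1.06). CLK1, the kinase that phosphorylates SR proteins, was higher (34.4, 34.7 and 34 and 57, 55.3 and 52.9 FPKM).

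Genes that answer quickly to growth factor and inflammatory signals were mostly lower with the degrader. Of 19 tested AP-1, EGR and other immediate early genes, 14 were lower and 2 higher (median -0.35). FOSL2 had 28.1, 27.9 and 33 FPKM with OTX015 and 13.1, 14.6 and 13.2 with ARV-825, and IER2 had 57.5, 61.8 and 56 and 28.8, 27.6 and 31.6. EGR1 was an exception at 2.99, 3.03 and 3.28 and 6.56, 7.15 and 5.54 FPKM (0.85). Of 15 ERK feedback genes, which encode phosphatases and adaptors that damp the MAP kinase pathway, 9 were lower and 1 higher (median -0.36). DUSP6, an ERK phosphatase, had 57.4, 53.8 and 53.9 FPKM with OTX015 and 22.6, 23.7 and 22.6 with ARV-825, on either side of its control mean of 34.3 (-1.23 ± 0.0437; limma adjusted p = 5.67e-08). SPRY1, a receptor tyrosine kinase antagonist, had 3.24, 3.13 and 2.96 and 0.177, 0.256 and 0.359 FPKM (-1.70). In both genes the 3 values of each group were close together and far from the other group.

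PIM1, a survival kinase induced through STAT5 downstream of GM-CSF, was lower with ARV-825. It had 154, 152 and 150.1 FPKM with OTX015 and 48.2, 46.8 and 49.2 with ARV-825, against 148 in control (-1.64 ± 0.041; limma adjusted p = 4.29e-09). The OTX015 libraries lay about at the control level and the ARV-825 libraries 3.16-fold below them. Over the 22 tested GM-CSF and STAT5 signalling genes, however, 6 were lower and 5 higher, with a median of 0.00. These counts were near the shares of all tested genes, 33.4% lower and 24.7% higher. OSM, a cytokine, was lower (2.97, 2.87 and 3.24 and 0.781, 0.712 and 0.631 FPKM), as was the phosphatase gene PTPN6 (89.3, 82 and 85.3 and 44.4, 43.2 and 45.5), whereas SOCS3, a feedback inhibitor, was higher (17.4, 17.2 and 16.6 and 27, 25.4 and 25.4).

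Of 10 tested IRF genes, 5 were lower and 0 higher (median -0.51). IRF2BP2, a corepressor that binds IRF2, had 158, 173 and 154 FPKM with OTX015 and 39.9, 37.9 and 41.8 with ARV-825, against 207 in control (-1.99 ± 0.0705; limma adjusted p = 5.67e-08). IRF1 had 44.8, 44.5 and 43 and 20.8, 22 and 22.1 FPKM, with control at 23.6. Of 19 tested interferon-stimulated genes, 9 were higher and 3 lower, the antiviral gene MX2 (10.2, 9.4 and 9.42 and 16.5, 15.2 and 17.2 FPKM) among the higher. Of 20 NF-kB genes, 11 were lower and 3 higher, and of 14 Toll-like receptor genes, 9 were lower and 3 higher. TLR4, the receptor of bacterial endotoxin, had 17, 17.1 and 18.6 FPKM with OTX015 and 7.6, 8.66 and 7.92 with ARV-825, while LY86, an accessory protein of the related receptor CD180, was higher (34.8, 31.2 and 31.3 and 55, 48.3 and 59.3).

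Among 12 tested chemokine and chemokine receptor genes, 6 were lower and 3 higher. CXCL8, the neutrophil attractant, had 25.8, 25.8 and 28.3 FPKM with OTX015 and 9.07, 10.1 and 8.78 with ARV-825, against 61.6 in control (-1.42 ± 0.0829; limma adjusted p = 1.05e-06). CCR2, the receptor that guides monocytes, had 2.24, 2.16 and 2.08 and 0.415, 0.267 and 0.797 FPKM, against 33.2 in control, so most of the control level was gone with either compound. CCL23 was higher with ARV-825, at 6.05, 5.26 and 8.38 FPKM against 2.92, 3.14 and 2.35.

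Survival genes differed by member. BCL2L1, which encodes BCL-XL, had 12, 11.1 and 9.15 FPKM with OTX015 and 5.59, 5.54 and 4.64 with ARV-825, against 17.5 in control (-0.91 ± 0.0967; limma adjusted p = 2.77e-05). BCL2 had 3.76, 3.87 and 4.54 and 3.68, 4.19 and 3.8 FPKM, overlapping groups that were both far below the control mean of 16.6. Its difference was -0.05 with an interval of -0.22 to 0.12 (limma adjusted p = 0.617). MCL1 was above its control mean of 65.3 with both compounds, at 147, 140.1 and 144 FPKM with OTX015 and 115, 119.5 and 106 with ARV-825 (-0.34). Of 8 tested anti-apoptotic genes, 4 were lower and 1, BIRC5, was higher. Of 13 BH3-only and effector genes, which promote death at mitochondria, 4 were lower and 3 higher. Both counts were near the shares of all tested genes, 33.4% lower and 24.7% higher. PMAIP1, which encodes NOXA, had 8.75, 9.75 and 9.47 FPKM with OTX015 and 22.1, 22.2 and 23.7 with ARV-825 (1.20 ± 0.081; limma adjusted p = 2.17e-06), while BMF was lower (11.4, 11.1 and 11.7 and 5.2, 4.79 and 5.52).

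PMAIP1 is also a p53 target, and in that list more genes were called higher with ARV-825 than lower. Of 28 tested p53 targets, 14 were higher and 2, CCNG2 and SUSD6, lower, with a median of 0.18 that compares with 0.69 for ARV-825 against control and 0.43 for OTX015 against control. CDKN1A, which encodes the cell cycle inhibitor p21, had 313, 292 and 294 FPKM with OTX015 and 619.9, 552 and 498 with ARV-825, against 148 in control (0.88 ± 0.0778; limma adjusted p = 8.97e-06). MDM2, the ligase that degrades p53, had 137, 132 and 183 and 303, 337 and 234 FPKM, against 74.6 in control (0.95 ± 0.141). In both genes each ARV-825 library lay above each OTX015 library, by a wider margin in CDKN1A. Of 13 death receptor genes, 8 were lower and only TNFRSF10D, a decoy receptor of TRAIL, was higher (6.58, 6.89 and 6.2 and 24.2, 24.1 and 22.9 FPKM; 1.71). The count of lower death receptor genes was 3 without OTX015 replicate 1 or ARV-825 replicate 2, and 4 without OTX015 replicate 2.

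Cell cycle lists held called genes in both directions, as did all tested genes, of which 24.7% were higher and 33.4% lower. Of 19 G1 cyclins, kinases and inhibitors, 8 were higher and 3 lower, with a median of 0.14. Of 37 DNA replication genes, 12 were higher and 8 lower, and of 34 G2/M genes, 6 were higher and 10 lower, with medians of 0.04 and 0.01. CDKN1B, which encodes p27, was slightly higher (0.20; limma adjusted p = 0.012). CDK6, a G1 kinase, did not pass, at 0.21 with an interval of -0.20 to 0.61 (limma adjusted p = 0.359); its levels were 13.7, 12.7 and 20.4 FPKM with OTX015 and 15.1, 23.6 and 15.6 with ARV-825. CCND3, its cyclin partner, was lower (81.1, 80.3 and 78.8 and 57, 56.4 and 54.3 FPKM). ORC6, part of the origin recognition complex, was higher (26.4, 27.8 and 26 and 42.1, 42.7 and 43.3 FPKM), and E2F2 was lower while E2F1 and E2F3 were higher.

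Monocyte, Fc receptor and neutrophil granule genes were mostly higher with ARV-825 than with OTX015. Of 17 tested monocyte genes, 11 were higher and 4 lower (median 0.50), the lower being CCR2 (-1.10), KLF4, CTSB and TNFRSF1B. Of 8 Fc receptor genes 6 were higher and 0 lower (0.65), and of 11 neutrophil granule genes 9 were higher and 0 lower (0.50). Of all tested genes, 24.7% were higher and 33.4% lower. FCGR1A and FCGR3A are counted in both the monocyte and the Fc receptor lists. The filter on the mean of 9 libraries could pass a low gene through the group where it was high. FCER1G and MPO, counted in the Fc receptor and granule lists, averaged 0.645 and 0.653 FPKM with OTX015 and 1.85 and 1.40 with ARV-825. Members this low with OTX015 could hardly be called lower. CSF1R, the receptor of the macrophage growth factor, had 8.02, 8.4 and 8.37 FPKM with OTX015 and 14.7, 14.8 and 14.2 with ARV-825, against 41.1 in control (0.75 ± 0.0461; limma adjusted p = 1.28e-06). FCGR1A, the high-affinity IgG receptor, had 13, 10.8 and 11.3 and 20.6, 21.4 and 22.8 FPKM, against 53.6 in control. For both genes the ARV-825 libraries lay between OTX015 and control. FCGR3A had 3.68, 3.41 and 3.08 FPKM with OTX015 and 10.2, 7.93 and 8.55 with ARV-825, the latter around the control mean of 8.15. The calprotectin gene S100A9 stood at 8.9, 8.35 and 8.13 and 15.2, 15.5 and 14.7 FPKM, and AZU1, a granule protein of neutrophils, at 1.84, 1.55 and 1.62 and 4.72, 3.67 and 4.85. With ARV-825 both lay above their control means, 8.86 FPKM for S100A9 and 1.76 for AZU1. Medians against control were -0.18 with ARV-825 and -0.62 with OTX015 for the monocyte list, and 0.16 and -0.37 for the granule list.

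Markers of other cell types moved with these lists. Of 72 listed markers of erythroid, megakaryocyte, B, T and NK, epithelial and fibroblast cells, 9 were tested, and 7 of these were higher with ARV-825 and 0 lower. Their summed level was 142 to 150.1 FPKM with ARV-825, 118.8 to 119.9 with OTX015 and 121 to 126 in control, most of it from a few genes such as NKG7 (32.2, 31.5 and 31.3 and 47.5, 46.6 and 45.7 FPKM) and NCAM1. GP1BA, with means of 0.512 FPKM in control and 0.809 with OTX015, passed the filter through its ARV-825 mean of 1.87. In the same lists 62 markers stayed under 1 FPKM in all 9 libraries and 16 were listed at 0. Their part in the result was not tested.

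Adhesion and antigen presentation genes were also higher by count. Of 12 integrin and selectin genes 6 were higher and 1 lower, the lower being ICAM2 (1.65, 2.42 and 1.83 and 0.691, 0.327 and 0.736 FPKM). ITGAM and ITGAX, the alpha chains of the myeloid complement receptors, had differences of 0.64 and 0.71. Of 20 MHC class I genes 8 were higher and 0 lower, and of 12 MHC class II genes 6 were higher and 2 lower. HLA-DMA, which loads peptides onto class II molecules, had 8.86, 8.61 and 7.81 FPKM with OTX015 and 13.5, 14.2 and 13.3 with ARV-825. The 2 lower class II genes, RFXAP (1.25, 1.67 and 1.48 and 0.422, 0.511 and 0.585 FPKM) and RFXANK, encode subunits of the factor that switches the class II genes on.

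Cholesterol synthesis was the metabolic list with the largest share of higher genes. Of 27 tested, 21 were higher and 2, INSIG2 and TM7SF2, lower, with a median of 0.33, and the median against control was 0.37 with ARV-825 and 0.04 with OTX015. IDI1, the isomerase of the isoprenoid branch, had 66.1, 70.4 and 72.1 FPKM with OTX015 and 122, 114 and 115 with ARV-825, against 51.2 in control (0.74 ± 0.0563; limma adjusted p = 3.83e-06). HMGCS1, which makes HMG-CoA, had 9.69, 9.66 and 10.2 and 17.9, 16.6 and 15.1 FPKM, against 9.73 in control. In both genes the OTX015 libraries were nearer to control than the ARV-825 libraries were.

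Nucleotide synthesis enzymes were higher in 16 and lower in 3 of 29 (median 0.20). DHODH, of pyrimidine synthesis, had 1.8, 2.29 and 1.7 FPKM with OTX015 and 3.31, 3.26 and 3.52 with ARV-825, against 6.5 in control, and RRM2, the ribonucleotide reductase subunit, was lower (252, 278 and 254 and 191, 175 and 189 FPKM). Respiratory chain genes were higher in 24 and lower in 2 of 76, with a median of only 0.09, and rescaling the libraries to a common median ratio gave 40 higher and 1 lower. The 13 mitochondrially encoded genes, 6 of them at 0 in ARV-825 replicate 1, gave 0 calls by limma and 1 higher call when any ARV-825 library was left out. Of 25 glycolysis genes 5 were higher and 6 lower, the lower ones including the glucose transporters SLC2A1 (31.1, 39.7 and 31.7 and 17.1, 18.4 and 19.8 FPKM) and SLC2A3 (42.7, 59.8 and 49.9 and 29.9, 27.9 and 31).

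The ATF4 stress response genes were lower in 11 and higher in 5 of 21 (median -0.29). TRIB3, a pseudokinase, had 2.74, 2.56 and 2.37 FPKM with OTX015 and 0.679, 0.42 and 0.821 with ARV-825, against 8.2 in control (-1.12). DDIT4, an inhibitor of mTORC1 that also responds to low oxygen, had 45.6, 105 and 42.5 and 13.1, 11.8 and 25.6 FPKM, against 18.6 in control (-1.83 ± 0.333; limma adjusted p = 8.66e-04). OTX015 replicate 2 was well above the other OTX015 libraries in it. ADM, the vasodilator adrenomedullin, had the same pattern, at 12.4, 31.5 and 11.8 FPKM with OTX015 and 2.96, 2.24 and 9.04 with ARV-825 (-1.81 ± 0.415; limma adjusted p = 0.0035). BHLHE40, a repressor linked to the clock and to hypoxia, had 10.7, 21.1 and 11.8 and 3.56, 2.35 and 6.67 FPKM (-1.60 ± 0.287). In each of the 3 genes OTX015 replicate 2 was the highest of its group and ARV-825 replicate 3 of its own, and the SE was several times the median SE of tested genes. Without OTX015 replicate 2 the differences were -1.42, -1.37 and -1.32 for DDIT4, ADM and BHLHE40, and all kept their calls.

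**Figure D3:**
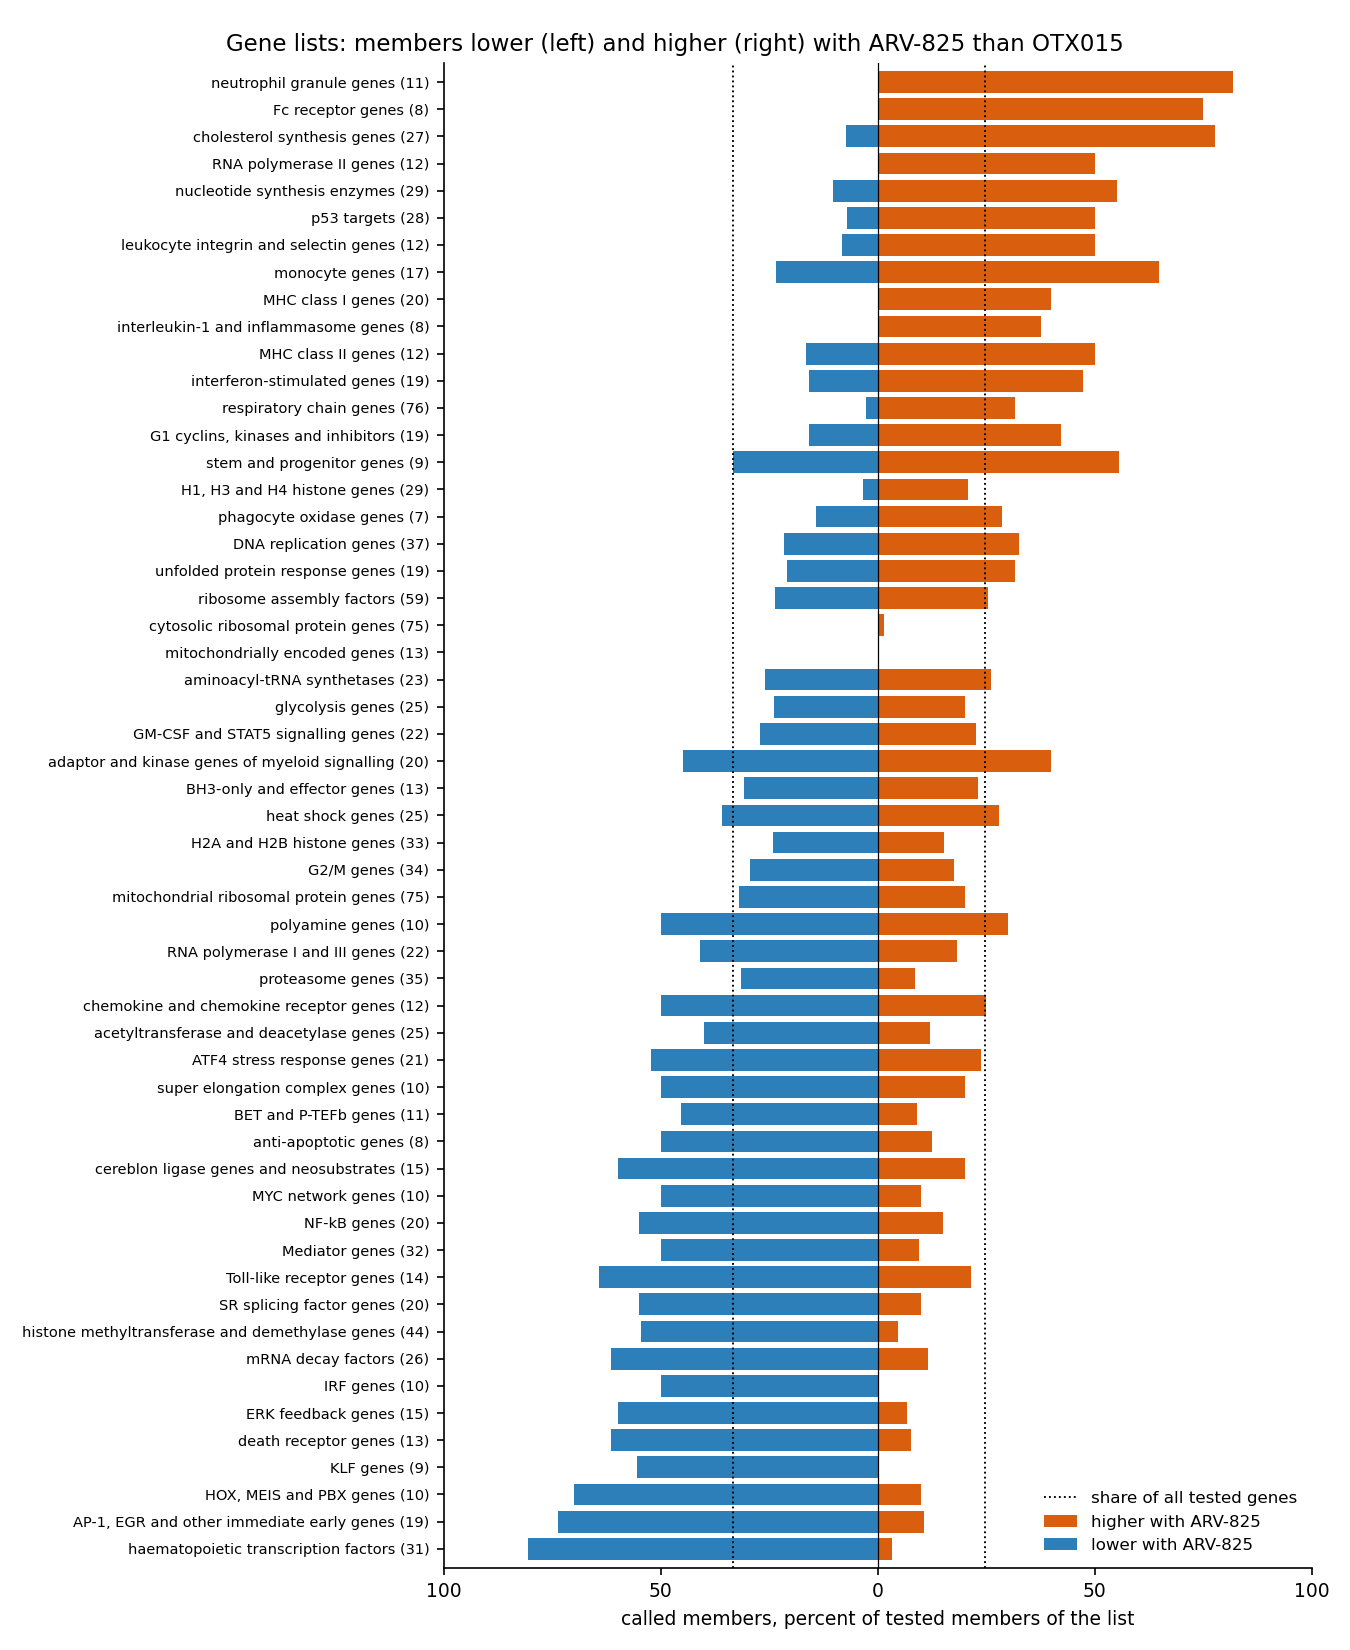
Share of tested members of each gene list (number in brackets) called lower (left, blue) and higher (right, orange) with ARV-825 than with OTX015, with dotted lines at the shares of all tested genes, 33.4% and 24.7%. The haematopoietic transcription factors lie at the bottom with 25 of 31 lower, and the neutrophil granule, Fc receptor and cholesterol synthesis genes at the top.

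Rescaling the libraries to a common median ratio moved several counts of higher genes by more than 1.5-fold. Higher acetyltransferase and deacetylase genes then numbered 7 in place of 3, proteasome genes 6 in place of 3, glycolysis genes 8 in place of 5 and SR splicing factor genes 4 in place of 2. The haematopoietic transcription factors had 2 higher in place of 1, and the p53 targets 1 lower in place of 2. Raising the filter to a mean of 5 FPKM left 8306 genes tested. Lower ERK feedback genes then numbered 4 in place of 9, and lower HOX, MEIS and PBX genes 3 in place of 7. Lower death receptor genes numbered 4 in place of 8, and lower monocyte genes 2 in place of 4. Higher MHC class I genes numbered 5 in place of 8. Some other list counts moved as well. With only the 6 libraries of the 2 compounds, lower death receptor genes numbered 5.

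Leaving out a library in turn moved some of the smaller list counts by more than 1.5-fold. Without OTX015 replicate 1, 1 interferon-stimulated gene was lower in place of 3, and without ARV-825 replicate 3, 5 were. Lower monocyte genes numbered 2 in place of 4 without OTX015 replicate 1, OTX015 replicate 2 or ARV-825 replicate 2. Lower p53 targets numbered 1 in place of 2 without OTX015 replicate 1, ARV-825 replicate 1 or ARV-825 replicate 2. Higher SR splicing factor genes numbered 4 in place of 2 without OTX015 replicate 3, and higher proteasome genes 1 in place of 3 without OTX015 replicate 3 or ARV-825 replicate 1. Higher glycolysis genes numbered 3 in place of 5 without ARV-825 replicate 1. Lower respiratory chain genes numbered 1 without OTX015 replicate 2 or ARV-825 replicate 2 and 4 without OTX015 replicate 3. Among the lists described, apart from the histone and death receptor counts given with them, the other counts that moved this far did so between 0 and 2 members.

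A group of genes lay on opposite sides of the untreated level with the 2 compounds, with both levels called different from control and from each other. The 8 with the largest difference are given as values without any count of such genes, because the comparisons with control share their libraries. CD69, an early activation marker of leukocytes, had a control mean of 3.49 FPKM, 6.2, 6.05 and 6.3 with OTX015 and 0.768, 0.481 and 1.02 with ARV-825 (-2.04 ± 0.114; limma adjusted p = 8.50e-07). BCL3, an NF-kB cofactor, had 20.2 FPKM in control, 46.2, 46.3 and 42.5 with OTX015 and 17.7, 15.7 and 17.7 with ARV-825, so that ARV-825 lay close to control. SLC38A2, a glutamine transporter, had 66.3 FPKM in control, 75.9, 70.8 and 79 with OTX015 and 30.6, 29.8 and 26 with ARV-825. ZNF772 and LIN7B had the same order, at control means of 4.55 and 1.8 FPKM, OTX015 means of 5.93 ± 0.0798 and 2.92 ± 1.06 and ARV-825 means of 1.85 ± 0.409 and 0.468 ± 0.192 (± SD, n = 3). In LIN7B, OTX015 replicate 3 alone fell within the control range.

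The reverse order, ARV-825 above and OTX015 below control, was seen in NFE2L3, BZRAP1 and CD247. NFE2L3, a transcription factor of the CNC family, had 10.3 FPKM in control, 4.56, 5.82 and 5.9 with OTX015 and 14.5, 16.5 and 11.8 with ARV-825. BZRAP1, which encodes a synaptic scaffold protein, had 9.86, 7.88, 6.12 and 6.31 and 28.9, 26 and 26 in the same order (1.85 ± 0.0837; limma adjusted p = 3.33e-07). CD247, the zeta chain of the T cell receptor, stayed low throughout, at 0.824, 0.356, 0.298 and 0.213 and 2.22, 2.21 and 1.76 FPKM.

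**Figure D4:**
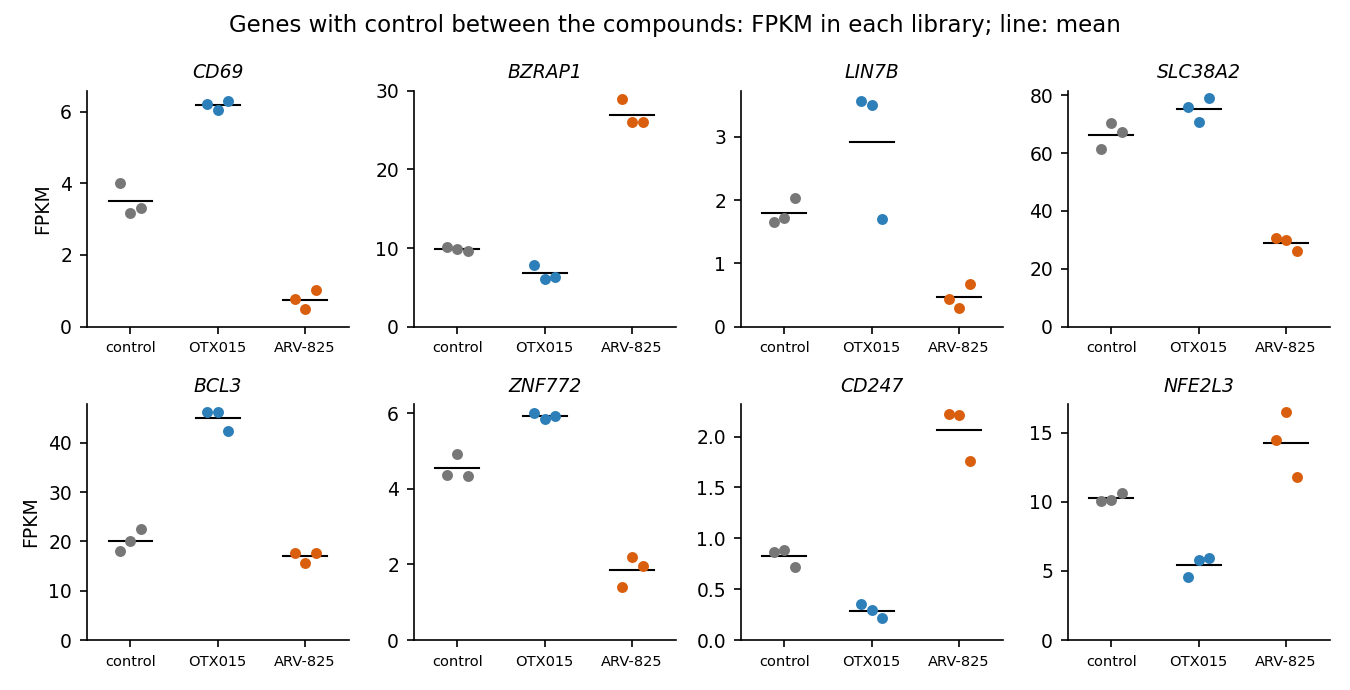
FPKM in each of the 9 libraries for the 8 genes with the largest called difference among those whose control mean lies between the compounds and that were also called against control with each compound (vertical axes linear from 0; points are libraries, lines the mean of 3). CD69, LIN7B, SLC38A2, BCL3 and ZNF772 are above control with OTX015 and below it with ARV-825, and BZRAP1, CD247 and NFE2L3 the other way.

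Of the 15 largest higher genes, 10 were under 1 FPKM in untreated cells. The filter and the log2(FPKM + 1) scale let a gene that low appear with a large difference only where a compound raised it. PLEKHA6, an adaptor of epithelial cell junctions, had a control mean of 0.0171 FPKM, 0.15, 0.0195 and 0.0242 with OTX015 and 8.77, 7.63 and 2.92 with ARV-825 (2.70 ± 0.266; limma adjusted p = 1.71e-05). KIAA1683 had 0.13 FPKM in control, 0.998, 0.739 and 1.02 with OTX015 and 10.2, 10.9 and 8.94 with ARV-825 (2.52 ± 0.0929; limma adjusted p = 6.64e-08). ARV-825 replicate 3 was the lowest of its group in both, by the wider margin in PLEKHA6. AVIL, an actin-binding protein of the villin family, had 1.07, 1.07 and 1.02 FPKM with OTX015 and 8.35, 7.54 and 6.4 with ARV-825, and MAPK13, a p38 kinase, had 0.984, 1.25 and 0.88 and 7.11, 5.6 and 5.4. CPM, a membrane carboxypeptidase of macrophages, was already present in control at 2.54 FPKM and reached 4.44, 4.89 and 4.12 with OTX015 and 31.3, 38 and 19.4 with ARV-825 (2.43 ± 0.187). CPM lies tail to tail with MDM2, and ADAMTSL4 (4.96, 6.14 and 5.21 and 25.1, 22.6 and 18 FPKM) with MCL1.

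Position beside other genes was therefore tabulated, a step chosen after these values were seen. A neighbour was the next protein-coding gene of the table in order, at any distance. Of the 15 largest higher genes, 11 had their upstream neighbour on the same strand, and in 7 this neighbour was at 20 FPKM or more in control. Among the 15 largest lower genes these numbers were 8 and 3, and over all tested genes the shares were 46.0% and 11.2%. LSMEM1 and RP11-159D12.5 overlap their upstream neighbours IFRD1 and SRSF1 in the annotation, and their reads may not be separable from those genes.

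The 6438 genes under 1 FPKM in control that overlap no neighbour were sorted by the position of an expressed neighbour (20 FPKM or more in control). With ARV-825, 35 of them were at least 2-fold higher than with OTX015 with groups apart (0.544%), and 0 were lower by that rule. Of 474 genes directly below an expressed same-strand gene 14 were higher (2.95%), of 347 whose expressed upstream neighbour runs the opposite way 0, of 371 with an expressed downstream neighbour on the same strand 2, and of 339 with such a neighbour on the opposite strand 3. With expressed genes on both sides 3 of 199 were higher, and with neither 13 of 4708. Distance to the neighbour was not compared between these classes. By the same rule against control, 19 of the 474 were higher with ARV-825 and 3 with OTX015, where all 6438 genes gave 77 (1.2%) and 22 (0.342%). The 14 include 4 of the 15 largest higher genes that prompted this step. Without those 15 genes, 10 of 470 in this class were higher (2.13%), 0 of 347 in the opposite-strand class and 11 of 4706 with neither neighbour expressed. Of the 14 upstream neighbours, 6 were called lower with ARV-825 and 0 higher, and 8 were not called.

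Pairs in this class included PLEKHA6 below PPP1R15B, KIAA1683 below JUND, MAPK13 below MAPK14 and RAPGEFL1 below CASC3. CRABP2, a retinoic acid carrier named here after its values were seen, lies below ISG20L2 and had 0.472, 0.677 and 0.432 FPKM with OTX015 and 5.59, 4.04 and 4.02 with ARV-825. The neighbour ISG20L2 had means of 38.7 and 34.8 FPKM. JUND itself, an AP-1 subunit, had means of 202.7 FPKM with OTX015 and 157.6 with ARV-825 while KIAA1683 went the other way. The levels reached remained modest: the 14 means with ARV-825 ran from 1.80 to 10.02 FPKM. The class count stayed at 13 to 15 when each of the 9 libraries was left out in turn. With a pseudocount of 0.1 it was 60 of 474, against 5 of 347 in the opposite-strand class. That setting also raised the called genes at least 2-fold apart from 205 to 616 over all tested genes. The remaining classes were not counted with it. Neighbours were taken from another annotation and build than the authors' values, and neither strand nor the fragments between the genes can be seen in these values.

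**Figure D5:**
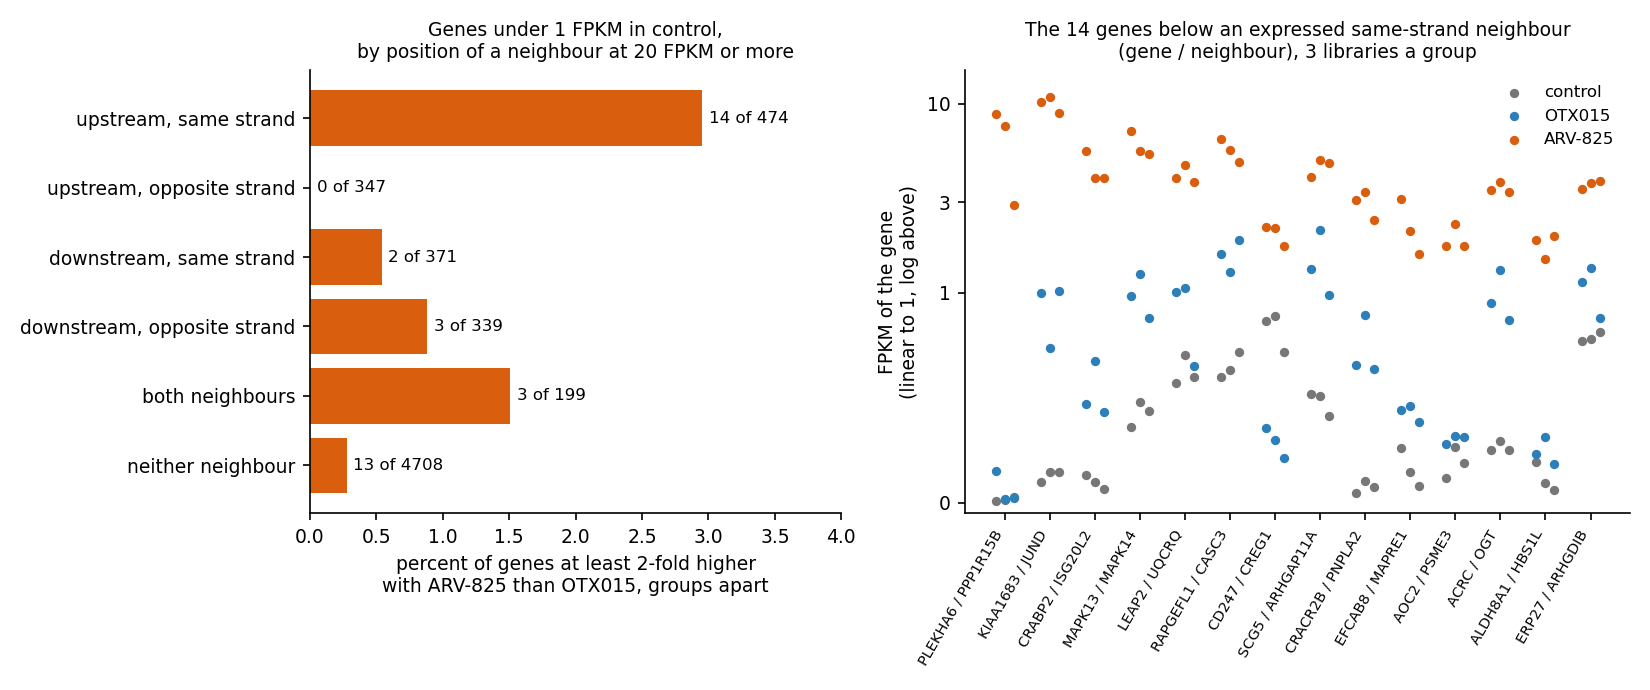
Left, percent of genes under 1 FPKM in control that were at least 2-fold higher with ARV-825 than with OTX015, by position of a neighbour at 20 FPKM or more (counts beside bars). Right, FPKM in each library (linear to 1, log above) of the 14 genes lying below an expressed same-strand neighbour; ARV-825 points lie above OTX015 points in all 14.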

How the data were processed

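Values of protein-coding genes in 9 drug libraries were read as FPKM, quantile normalized by the authors before they were deposited: the table's name carries an abbreviation read that way, its column headers name no unit, and TopHat2 2.0, Cufflinks 2.0 and the build hg19 are listed per the submitters' processing notes. The annotation behind the values is not given in the sources used. Depth is unknown, so no counting interval is given. Of 19620 entries, 16 pseudoautosomal copies were left out and 28 symbols turned into dates were restored.

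Log2(FPKM + 1) of genes with a mean of at least 1 was fitted by group in limma 3.58.1 (R 4.3.3) with a mean-variance trend over all 9 libraries, and p-values were adjusted by Benjamini-Hochberg and called under 0.05. The step was tested on simulated data. Neighbours came from GENCODE 29, a release on another build, so no coordinates are given. Genes named were 24 anchors, the 15 largest called differences each way with groups apart and at least 5 FPKM, up to 5 called members of each of 61 lists, and the 8 largest with control between the compounds and both compounds called against control. This group membership, the lists and the rule were chosen with earlier results of these data known. Nothing names separate days or batches, so p-values measure the spread between libraries, part of which may be technical. Alternatives changed the pseudocount, filter, scaling, libraries and model, and their main effects are given with the lists and at the end. Some genes covered by the rule are not reported here.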

Additional observations from a re-analysis of the deposited data

How the results depend on the processing

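The count of called genes ran from 4796 to 6789 over 16 alternatives, against 6282, and from 5573 to 6267 when each library was left out in turn. The count of genes at least 2-fold apart was 205; it was 616 with a pseudocount of 0.1, 95 where the filter was raised to a mean of 5 FPKM, and 206 to 232 when each library was left out. Rescaling to median ratios gave 3149 higher and 3196 lower genes (49.6% higher, against 42.5%). Of 293 called named genes, 284 kept direction and call in every alternative in which they were tested, and 9 lost the call in at least 1, among them AFF1, CEBPE, CRBN, FBN1, KLF10, POLR2J and TNFRSF10C. Changes of sign were seen in 3 genes that had not been called. BCL2 ran from -0.091 to 0.020 and BRD3 from -0.003 to 0.150 over the fits that left out a library, and SPI1 was 0.009 after median-ratio rescaling; the cause was not tested. Libraries of different groups share only a replicate number. The correlations of their deviations ran from -0.321 to 0.061 for equal numbers and from -0.224 to 0.409 for unequal numbers. The highest was between OTX015 replicate 3 and ARV-825 replicate 2, and OTX015 replicate 2 with ARV-825 replicate 3 gave 0.226. The fit with the replicate number as a block called 5884 genes, and such a block does not address deviations shared across unequal numbers. Depth per library is unknown, which limits what can be said of genes near 1 FPKM. The median value per library differed by -0.229 FPKM over all genes and by -0.216 over the tested genes.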

Other observations

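Several lists not described above held called genes in both directions, as did all tested genes (24.7% higher, 33.4% lower). Some counts in this section are near those shares. Of 25 heat shock genes, 7 were higher with ARV-825 and 9 lower (median 0.07). HSPA8, the constitutive cytosolic chaperone, had 1182, 1108 and 1152 FPKM with OTX015 and 719, 604 and 552 with ARV-825 (-0.88 ± 0.0884; limma adjusted p = 1.89e-05), the widest gap in that list, and CHORDC1, a partner of HSP90, had 29.3, 28.1 and 29.6 and 16.2, 17.8 and 17.1. DNAJB4 was higher (10.9, 11 and 11.3 and 19.3, 17.5 and 17.8 FPKM). Among 19 unfolded protein response genes, 6 were higher and 4 lower: XBP1 and its activating nuclease gene ERN1 were lower (-0.56 and -0.47), while the disulfide isomerases PDIA4 and PDIA6 were higher (0.30 and 0.40). Of 75 mitochondrial ribosomal protein genes, 15 were higher and 24 lower, from MRPL27 at -0.79 to MRPL33 at 0.48. Of 23 aminoacyl-tRNA synthetases 6 were higher and 6 lower, the higher count being 3 without OTX015 replicate 1. Of 22 RNA polymerase I and III genes 4 were higher and 9 lower, the lower count being 5 without ARV-825 replicate 1, and POLR1B, the second-largest polymerase I subunit, had 9.98, 8.38 and 12.4 and 5.53, 5.01 and 5.19 FPKM.

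Of 10 tested polyamine genes, 3 were higher and 5 lower. SMS and ODC1, which make polyamines, were higher (0.50 and 0.32). AMD1, also an enzyme of synthesis and named after its values were seen, was lower (-0.22), as were AZIN1, which protects the ODC1 protein (-0.30), and the catabolic genes SAT1 and SMOX (-0.57 and -0.45). SAT1 had 177, 169.9 and 159.6 FPKM with OTX015 and 114, 107 and 120.1 with ARV-825, against 14.6 in control. Of 9 tested KLF genes, 5 were lower and 0 higher. KLF2, a quiescence factor, was far above its control mean of 6.06 FPKM with both compounds, at 69.8, 79.5 and 67.7 with OTX015 and 70.2, 62.3 and 58.4 with ARV-825, and the groups overlapped (-0.18; interval -0.40 to 0.03; limma adjusted p = 0.133). Of 9 stem and progenitor genes, 5 were higher and 3 lower: CD34 (1.37, 1.63 and 1.52 and 2.6, 2.86 and 3.08 FPKM) and FLT3 (2.02, 2.15 and 1.98 and 3.41, 2.9 and 3.75) were higher, and SOX4 (5.26, 5.39 and 5.68 and 2.51, 2.54 and 2.98) was lower. Among 20 adaptor and kinase genes of myeloid signalling, 8 were higher and 9 lower, with LAT2 at 0.57 and LCP2 at -0.78. CYBB, the catalytic subunit of the phagocyte oxidase, had 6.37, 6.79 and 7.33 FPKM with OTX015 and 12.3, 13.7 and 14 with ARV-825, against 11.7 in control, while NCF1, a cytosolic subunit, was lower (-0.39).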
